A study of Arabidopsis thaliana with 4 samples.

Results

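The 10 genes described here encode the protein kinases and transcription factors through which abscisic acid (ABA), the plant hormone of drought and seed dormancy, changes gene expression in Arabidopsis thaliana. They were taken by locus code: the kinases SnRK2.2 (AT3G50500), SnRK2.3 (AT5G66880) and SnRK2.6 (AT4G33950), the bZIP factors ABF1 (AT1G49720), ABF2 (AT1G45249), ABF3 (AT4G34000) and ABF4 (AT3G19290), and the factors ABI3 (AT3G24650), ABI4 (AT2G40220) and ABI5 (AT2G36270). All 10 were found among the 27416 gene models of both genotypes.

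Messenger RNA was sequenced from seedlings of a mutant in the red-light receptor phytochrome B (phyB) and from the wild type (WT), both described as Col-0. Seeds of both genotypes had 4 days at 4 °C on half-strength MS medium with 1% sucrose, then white light for 12 h and red light (60 μmol per m2 and second) for 4 days, in all 4.5 days of growth. The allele of the mutant is not named in the labels. Although 2 samples of each genotype are listed, the deposited data hold reads and RPKM (reads scaled to coding length and to the column total) once per genotype. There was therefore no spread between replicates to compare with, and no test between genotypes. Intervals below are exact 95% counting intervals, which cover counting error only and not the spread between plants.

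In the ABA pathway, receptors of the PYR/PYL family bind the hormone and then block the clade A protein phosphatases (PP2C), which otherwise hold SnRK2 kinases inactive. The released kinases phosphorylate bZIP factors of group A, the ABFs and ABI5, which bind the ABA-responsive element (ABRE) in front of their target genes. SnRK2.6, also called OST1, is best known for closing stomata, while SnRK2.2 and SnRK2.3 act mainly in seeds and roots. ABI3, ABI4 and ABI5 are best known from seed maturation and the arrest of germinated seedlings. Phytochrome B in its active form enters the nucleus and leads to the breakdown of PIF proteins, factors of growth in darkness and shade.

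The phyB column held 33201394 reads and the WT column 33521717 reads. PHYB itself was at 14.1 RPKM in phyB, against 36.3 RPKM in WT. The titles of the WT samples carry a word for a repeated analysis that those of the mutant lack, so such a difference and the genotype cannot be told apart. Among the tissue markers, those of the shoot summed to 29407 RPKM in phyB and 30040 RPKM in WT, with the stem-cell gene WUS the only one of 8 at 0 reads, in WT. Those of the root summed to 62.6 RPKM in phyB and 69.9 RPKM in WT, with 0 of 10 at 0 reads. Neither list held a counted gene at 2-fold. Of the 8 counted root markers 6 had a ratio below 0, 4 of them with the interval wholly below 0 (GL2, LRX1, RHD6 and SCR, from -0.66 to -0.34), and the median was -0.29, or -0.16 with the trend on coding length removed. The most abundant on average, SHR, was at 23.7 RPKM in phyB and 23.8 RPKM in WT. LHCB1.3, a light-harvesting gene with near-identical copies, was at 12107 RPKM in phyB and 13693 RPKM in WT. Genes averaging 1 RPKM or more over both columns numbered 19296 and are called counted genes below. Of these, 1038 (5.38%) differed 2-fold or more.

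The sequences in front of the genes were searched for the element that the ABFs and ABI5 bind. Shown are the 250 bases before the annotated gene start, 5′ to 3′ on the strand of the gene, from the RefSeq sequence of TAIR10.1, for both members of the 10 that hold an ABRE, for the 2 members with the lowest ratios, and for 3 ABA-response genes that were much lower in phyB and hold 2 or more ABRE matches. GOLS2, a galactinol synthase gene of the same list named after its value was seen, was low as well, but its window holds no match. GOLS2 was at 0.39 RPKM (13 reads) in phyB and 4.26 RPKM (144 reads) in WT, a log2 ratio of -3.46 (interval -4.40 to -2.64). Capitals mark ABRE matches (ACGTGNC, where N is any base, on either strand) and G-box matches (CACGTG), which can overlap. The windows are chr5:26710052-26710301 (plus strand) for SnRK2.3, chr2:15207637-15207886 (minus) for ABI5, chr1:18399753-18400002 (plus) for ABF1, chr4:16295084-16295333 (plus) for ABF3, chr1:19619474-19619723 (plus) for LEA7, chr5:21236771-21237020 (plus) for RD29B and chr2:16780369-16780618 (minus) for EM6.
SnRK2.3: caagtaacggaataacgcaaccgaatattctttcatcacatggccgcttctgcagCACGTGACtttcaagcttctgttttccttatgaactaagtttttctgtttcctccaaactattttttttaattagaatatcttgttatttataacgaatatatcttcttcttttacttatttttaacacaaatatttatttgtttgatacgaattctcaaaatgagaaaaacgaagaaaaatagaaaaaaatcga
ABI5: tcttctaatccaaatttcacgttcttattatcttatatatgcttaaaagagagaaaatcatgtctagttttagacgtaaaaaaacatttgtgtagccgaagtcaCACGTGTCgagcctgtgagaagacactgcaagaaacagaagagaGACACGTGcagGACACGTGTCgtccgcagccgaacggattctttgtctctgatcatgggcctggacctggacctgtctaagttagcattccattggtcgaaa
ABF1: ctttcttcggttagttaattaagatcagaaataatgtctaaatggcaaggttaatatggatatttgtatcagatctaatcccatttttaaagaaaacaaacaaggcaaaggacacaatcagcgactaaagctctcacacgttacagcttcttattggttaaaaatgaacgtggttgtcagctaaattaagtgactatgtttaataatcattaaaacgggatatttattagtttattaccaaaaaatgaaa
ABF3: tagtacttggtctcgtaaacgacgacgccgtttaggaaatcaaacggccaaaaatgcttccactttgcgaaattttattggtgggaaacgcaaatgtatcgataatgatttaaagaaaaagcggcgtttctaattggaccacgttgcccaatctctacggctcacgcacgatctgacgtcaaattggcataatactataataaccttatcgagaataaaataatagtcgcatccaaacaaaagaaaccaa
LEA7: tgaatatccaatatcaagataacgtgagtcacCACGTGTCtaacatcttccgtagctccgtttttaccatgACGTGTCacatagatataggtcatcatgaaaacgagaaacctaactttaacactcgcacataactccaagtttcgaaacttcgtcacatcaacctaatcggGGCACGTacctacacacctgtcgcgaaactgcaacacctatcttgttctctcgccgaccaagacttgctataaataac
RD29B: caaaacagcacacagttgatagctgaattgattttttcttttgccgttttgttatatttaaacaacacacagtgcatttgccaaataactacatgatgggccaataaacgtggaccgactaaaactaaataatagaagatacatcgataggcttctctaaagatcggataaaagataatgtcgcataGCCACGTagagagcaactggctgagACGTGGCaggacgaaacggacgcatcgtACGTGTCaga
EM6: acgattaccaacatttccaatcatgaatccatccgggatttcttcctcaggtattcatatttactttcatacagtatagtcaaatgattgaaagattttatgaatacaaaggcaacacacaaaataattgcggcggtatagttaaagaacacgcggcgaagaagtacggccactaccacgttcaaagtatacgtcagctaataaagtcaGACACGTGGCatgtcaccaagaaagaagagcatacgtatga

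The ABI5 window held 4 ABRE matches, of which the last bases lay 139, 96, 85 and 82 bases before the gene start, and 3 G-boxes. The final pair are both strands of 1 palindromic stretch. SnRK2.3 had 1 ABRE match, which overlaps a G-box 190 bases before the start. The windows of the other 8 members, all 4 ABF genes among them, held neither motif. Over 26709 protein-coding nuclear genes, 8.67% of such windows held an ABRE match and 6.58% a G-box. Of the other motifs searched on both strands, the RY element (CATGCA), to which ABI3 and its relatives bind, was in none of the 10 windows, against 8.51% of all windows. The CE1 element (CACCG), to which ABI4 binds, was in the window of ABI4 alone, against 11.3% of all windows. A match describes letters in this window only, and a window without one says nothing about binding elsewhere.

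The kinases were nearly as abundant in phyB as in WT, and none of the 3 came near a 2-fold difference. SnRK2.2, the most abundant of them, had 5004 reads or 136 RPKM in phyB and 4750 reads or 128 RPKM in WT, a log2 ratio of 0.09 (interval 0.03 to 0.15). SnRK2.3, its nearest relative, had 887 reads or 24.6 RPKM in phyB and 786 reads or 21.6 RPKM in WT, a log2 ratio of 0.19 (0.05 to 0.33). SnRK2.6, the guard-cell kinase, had 1142 reads or 31.6 RPKM in phyB and 1319 reads or 36.1 RPKM in WT, a log2 ratio of -0.19 (-0.31 to -0.08). SnRK2.2 and SnRK2.3 were thus slightly higher and SnRK2.6 slightly lower in phyB. The ratio of SnRK2.2 exceeded that of SnRK2.6 by 0.28 (0.16 to 0.41), while SnRK2.2 and SnRK2.3 differed by -0.10 (-0.25 to 0.05), within counting error. In seedlings sequenced in bulk, fewer cells of a type and less RNA per cell cannot be told apart.

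The summed level of the 3 kinases was 192 RPKM in phyB and 185 RPKM in WT. SnRK2.2 made up 70.7% of that sum in phyB and 68.9% in WT, SnRK2.6 16.5% and 19.5%, and SnRK2.3 12.8% and 11.6%. The coding sequences of SnRK2.2 and SnRK2.3 are 84.4% identical over 1080 aligned bases, and those of SnRK2.2 and SnRK2.6 72.7% over 1083, so no member had a near-identical copy (at least 90% identity over 80% of its length) that could share its reads. SnRK2.6 is used in guard cells, and 8 markers of the stomatal lineage and guard cells summed to 121 RPKM in phyB and 102 RPKM in WT, with none at 0 reads. Their part in the level of SnRK2.6 was not tested. Of the 7 counted, 2 were at least 2-fold higher in phyB, against 3.20% of counted genes, and 0 lower, against 2.18%. They were the lineage genes EPF1 (5.35 RPKM in phyB, 1.99 RPKM in WT) and TMM (25.5 RPKM in phyB, 11.2 RPKM in WT). EPF1 rests on 56 reads in phyB and 21 reads in WT, and its interval spans 2-fold (1.43, 0.68 to 2.23). TMM had 1264 reads in phyB and 558 reads in WT (1.19, 1.05 to 1.34). Of the 7 ratios 4 lay above 0 and 3 below, with a median of 0.07. Those below 0 were GORK, a potassium channel gene of guard cells (-0.85, interval -1.03 to -0.66), FAMA (-0.44, -0.85 to -0.04) and HT1 (-0.37, -0.88 to 0.14), named after their values were seen. SLAC1, the guard-cell anion channel that SnRK2.6 opens, had 4 reads or 0.07 RPKM in phyB and 9 reads or 0.16 RPKM in WT.

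**Figure D1:**
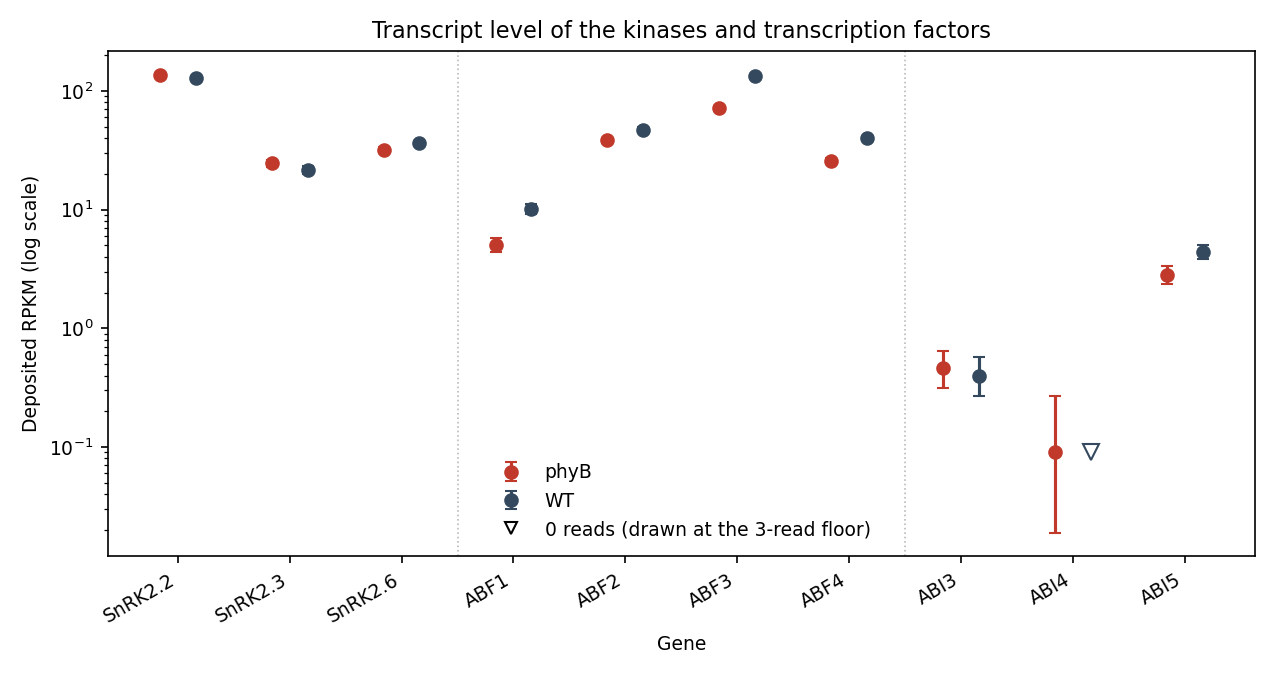
Deposited RPKM (log axis) of the 10 genes in phyB (left point of each pair) and WT (right point), with exact 95% counting intervals; an open triangle stands for 0 reads, drawn at the floor of 3 reads. The kinases are nearly level between genotypes, the 4 ABF genes and ABI5 are lower in phyB, and ABI3 and ABI4 lie below 1 RPKM in both.

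All 4 ABF genes, the main ABRE-binding factors of vegetative tissue, were lower in phyB, and ABF1 was the only member of the 10 at 2-fold or more. ABF1 had 203 reads or 5.04 RPKM in phyB and 414 reads or 10.2 RPKM in WT, a log2 ratio of -1.01 (interval -1.26 to -0.77). That interval spans the 2-fold line. ABF3, the most abundant ABF, had 3253 reads or 71.8 RPKM in phyB and 6080 reads or 133 RPKM in WT, a log2 ratio of -0.89 (-0.95 to -0.83). Its large read number makes this the narrowest interval of the ABF genes, and it excludes 2-fold. ABF4, also called AREB2, had 1105 reads or 25.6 RPKM in phyB and 1736 reads or 39.9 RPKM in WT, a log2 ratio of -0.64 (-0.75 to -0.53). ABF2, also called AREB1, had 1639 reads or 38.4 RPKM in phyB and 2032 reads or 47.2 RPKM in WT, a log2 ratio of -0.30 (-0.39 to -0.20), the smallest difference of the 4.

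The ABF genes did not differ to the same degree. The ratios of ABF1 and ABF3 differed by -0.13 (-0.38 to 0.12), within counting error, whereas ABF2 stood above ABF3 by 0.59 (0.48 to 0.70) and above ABF4 by 0.34 (0.20 to 0.49). The 4 genes together summed to 141 RPKM in phyB and 230 RPKM in WT, a log2 ratio of sums of -0.71. ABF3 made up 50.9% of the sum in phyB and 57.7% in WT, and ABF2 27.3% in phyB and 20.5% in WT. ABF3 was 1.87 times the level of ABF2 in phyB and 2.81 times in WT. Among counted genes, 2.08% had a ratio lower than that of ABF1 and 2.91% lower than that of ABF3, against 5.95% for ABF4 and 21.5% for ABF2.

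ABI5, the bZIP factor that arrests growth after germination, was also lower in phyB. It had 125 reads or 2.83 RPKM in phyB and 196 reads or 4.40 RPKM in WT, a log2 ratio of -0.64 (-0.97 to -0.30). ABF4 minus ABI5 was -0.003 (-0.34 to 0.34) in log2 ratio, while ABF2 stood above ABI5 by 0.34 (0.002 to 0.68). ABI3, the B3-domain factor of seed maturation, had 33 reads or 0.46 RPKM in phyB and 29 reads or 0.40 RPKM in WT, a log2 ratio of 0.20 (-0.56 to 0.97), which is no detectable difference at this depth. ABI4, an AP2-type factor of sugar and ABA responses in seedlings, had 3 reads in phyB and 0 reads in WT. Both columns are at or under the floor of 3 reads, equal to 0.092 RPKM in phyB and 0.091 RPKM in WT, so no fold is given. Seed storage and oil-body markers summed to 36.5 RPKM in phyB and 38.6 RPKM in WT over 11 genes, with 0 at 0 reads in either genotype. Of the 9 counted, 1 was 2-fold higher, against 3.20% of counted genes, and 0 were 2-fold lower, against 2.18%. The 1 higher was SESA1, named after its value was seen, with 62 reads in phyB and 31 reads in WT. Its interval spans 2-fold (1.01, 0.37 to 1.69). The 9 ratios lay above 0 for 3 genes and below for 6, with a median of -0.26. Not counted were SESA4 (1 read in phyB, 22 reads in WT, -4.45, interval -9.81 to -1.82) and OLEO4 (23 reads in phyB, 12 reads in WT, 0.95, -0.11 to 2.09). Both were named after their values were seen. The storage protein gene CRA1 was at 7.58 RPKM in phyB and 9.10 RPKM in WT. Their part in the levels of ABI3 and ABI5 was not tested.

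**Figure D2:**
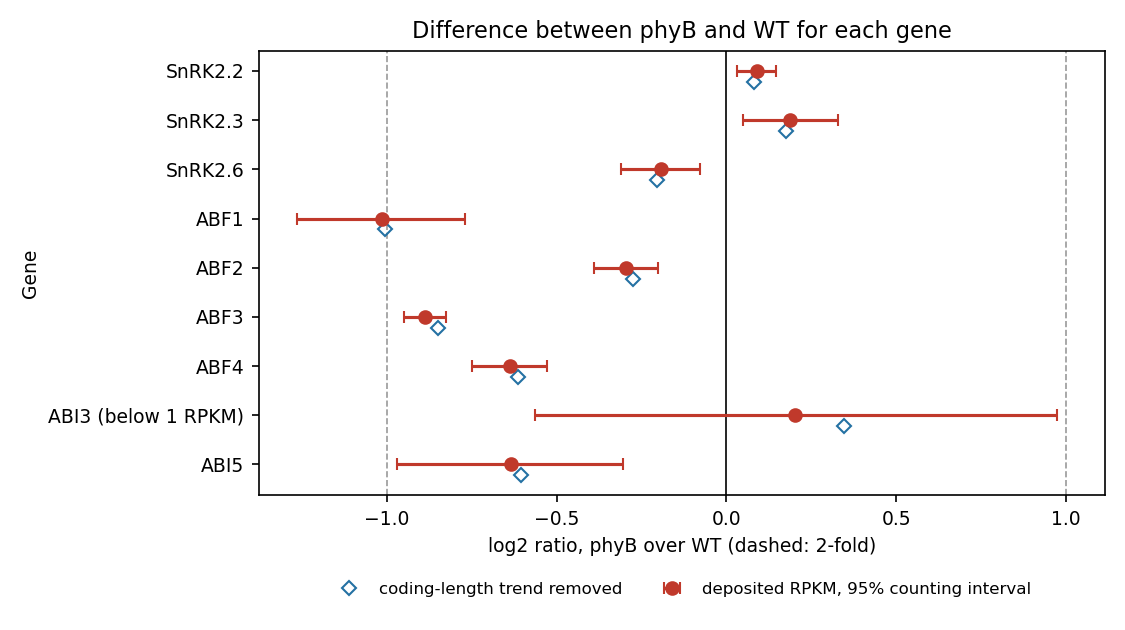
The log2 ratio (phyB over WT) of the 9 genes above the read floor, with exact 95% counting intervals; open diamonds show the ratio with the trend on coding length removed, and dashed lines mark 2-fold. SnRK2.2 and SnRK2.3 lie right of 0, SnRK2.6 left of it, the interval of ABI3 spans 0, and ABF1 to ABF4 and ABI5 lie between -1.01 and -0.30.

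Of the 10 genes, 8 were counted genes, while ABI3 and ABI4 were too low. Their median log2 ratio was -0.47, against -0.01 over all counted genes. Of the 8, 1 (ABF1) was 2-fold lower, against 2.18% of counted genes, and 0 were 2-fold higher, against 3.20%. A ratio below 0 was seen for 6 of the 8, against 51.0% of all genes. The counting interval lay wholly below 0 for those 6, against 32.0% of all genes, and wholly above 0 for SnRK2.2 and SnRK2.3, against 29.8%. An interval that excludes 0 is therefore common at this depth.

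By level, the order in phyB was SnRK2.2, ABF3, ABF2, SnRK2.6, ABF4, SnRK2.3, ABF1, ABI5, ABI3 and ABI4. ABF4 (24.1 to 27.2 RPKM) and SnRK2.3 (23.0 to 26.3 RPKM) were neighbours with overlapping counting intervals there. In WT the order was ABF3, SnRK2.2, ABF2, ABF4, SnRK2.6, SnRK2.3, ABF1, ABI5, ABI3 and ABI4. ABF3 (130 to 136 RPKM) and SnRK2.2 (124 to 131 RPKM) overlapped in WT, as did ABF4 (38.0 to 41.8 RPKM) and SnRK2.6 (34.2 to 38.1 RPKM). The level of ABF3 was 0.53 times that of SnRK2.2 in phyB and 1.04 times in WT. Among all gene models, SnRK2.2 stood at percentile 94.7 in phyB and 94.7 in WT, ABF3 at 90.2 in phyB and 94.9 in WT, and ABF1 at 46.0 in phyB and 57.6 in WT. The genes closest to ABF1 in log2 RPKM over the 2 columns were AT3G54830, a transmembrane amino acid transporter gene (5.08 RPKM in phyB and 10.3 RPKM in WT, Euclidean distance 0.014), CYP71A20 (distance 0.036) and AT4G27654, annotated as an uncharacterized protein (distance 0.036).

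The counted models, positions and neighbours bear on how firmly each value can be read. Each of the 10 coding lengths implied by the values, between 987 nt for ABI4 and 2163 nt for ABI3, equals that of at least 1 transcript in the RefSeq annotation of TAIR10.1. ABF1 lies at chromosome 1, positions 18400003 to 18402628 on the plus strand, with 5 exons in the counted model, and the model of ABF2 (chromosome 1, 17165125 to 17167924, minus strand, 6 exons) is 1 of 10 coding transcripts annotated there. ABF3 (chromosome 4, 16295334 to 16298285, plus strand, 5 exons) has 4 coding transcripts and ABF4 (chromosome 3, 6687042 to 6690123, plus strand, 5 exons) has 5. SnRK2.2 lies at chromosome 3, 18741444 to 18744174 on the minus strand with 9 exons, SnRK2.3 at chromosome 5, 26710302 to 26712971 on the plus strand with 10, and SnRK2.6 at chromosome 4, 16271745 to 16274825 on the plus strand with 10. ABI3 (chromosome 3, 8997370 to 9001185, plus strand) has 6 exons, ABI4 (chromosome 2, 16796247 to 16797585, minus strand) has 1 and ABI5 (chromosome 2, 15204659 to 15207636, minus strand) has 4.

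ABF4 overlaps an opposite-strand noncoding RNA gene, AT3G03815, over 2516 bases, which include 1243 of its 1299 coding bases. SnRK2.3 shares 46 coding bases with the opposite-strand noncoding RNA gene AT5G09785. The sources used here do not say whether counting used strand, and without it the reads of these partners cannot be told apart. The overlaps of ABF1 and ABF3 with opposite-strand genes touch 0 coding bases. The log2 ratio followed coding length across all genes, but at the lengths of these members the trend lay between -0.15 (ABI3) and 0.03 (ABI4). With it removed, ABF1 stood at -1.01, ABF3 at -0.85, ABF4 at -0.61, ABI5 at -0.60, ABF2 at -0.27, SnRK2.6 at -0.21, SnRK2.2 at 0.08 and SnRK2.3 at 0.18.

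Upstream of the kinases, the median ratio was above 0 for the ABA receptor genes and below 0 for the PP2C genes. Of 14 receptor genes 9 were counted, with 2 higher by 2-fold or more, against 3.20% of counted genes, and 0 lower. Of the 9 ratios 6 lay above 0 and 3 below, with a median of 0.48, or 0.37 with the length trend removed. PYL6 was at 13.7 RPKM in phyB and 2.95 RPKM in WT, a log2 ratio of 2.22, and PYL2, named after its value was seen, at 4.31 RPKM in phyB and 1.41 RPKM in WT (1.62). Of 9 clade A PP2C genes 6 were counted, with 4 lower by 2-fold or more, against 2.18% of counted genes, 0 higher and a median of -1.10. HAI1 was at 3.78 RPKM in phyB and 21.0 RPKM in WT (-2.47), AHG3 at 29.0 RPKM in phyB and 64.8 RPKM in WT (-1.16), HAB1 at 22.9 RPKM in phyB and 50.9 RPKM in WT (-1.15), and ABI2 at 7.10 RPKM in phyB and 14.8 RPKM in WT (-1.06). On the log2(RPKM + 1) scale ABI2 stood at -0.96, short of 2-fold. PP2C genes are themselves induced by ABA. All of these lists were chosen with earlier results of the same data known, so their counts are a description.

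The other 7 SnRK2 genes, which ABA activates weakly or not at all, were all counted and 0 differed 2-fold. Their median log2 ratio was -0.29, and SnRK2.10, the most abundant, was at 98.8 RPKM in phyB and 125 RPKM in WT (-0.34). The 10 SnRK2 genes summed to 482 RPKM in phyB and 544 RPKM in WT, of which SnRK2.2 took 28.1% in phyB and 23.5% in WT. Of 15 other kinases that phosphorylate SnRK2 kinases or group A bZIP factors, among them Raf-type kinases, CPK4, CPK11, CPK32 and BIN2, 13 were counted and 0 differed 2-fold. A ratio below 0 was seen for 12 of the 13, against 51.0% of counted genes, with a median of -0.29, or -0.17 with the length trend removed. BIN2, the GSK3-type kinase of brassinosteroid signalling, was at 136 RPKM in phyB and 166 RPKM in WT (-0.28).

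Relatives of the ABF genes were described in the same way. Of 8 other group A bZIP genes 5 were counted and 0 differed 2-fold, with 4 ratios above 0 and a median of 0.20, against -0.76 over ABF1 to ABF4. AT5G44080, the most abundant, was at 30.3 RPKM in phyB and 26.0 RPKM in WT (0.22). EEL, an antagonist of ABI5 at the EM1 promoter, was at 9.77 RPKM in phyB and 5.75 RPKM in WT (0.77), and was named after its value was seen. Of 7 seed regulators and their repressors only VAL1 (10.1 RPKM in phyB, 11.3 RPKM in WT) and VAL2 were counted, with 0 at 2-fold and a median of -0.25, or -0.09 with the length trend removed. LEC1, a master regulator of embryo development, was at 0 reads in both genotypes.

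Among 9 genes for partners and turnover of ABI5 and the ABFs, all counted, 1 was lower by 2-fold, against 2.18% of counted genes, and 0 were higher. Their median was -0.18, but turned to 0.04 with the length trend removed. That gene was AFP1, whose product binds ABI5 and lowers its amount, at 8.07 RPKM in phyB and 21.6 RPKM in WT (-1.42). KEG, the ubiquitin ligase that keeps ABI5, ABF1 and ABF3 proteins low, was at 9.63 RPKM in phyB and 10.9 RPKM in WT, named after its value was seen. Its ratio of -0.18 also turned to 0.04 with the length trend removed. Of 13 transcriptional regulators that act on ABI3, ABI4 or ABI5 or link light to ABA, all counted, 2 were lower by 2-fold, against 2.18% of counted genes, and 0 higher (median -0.23). They were PIF4 (25.7 RPKM in phyB, 61.1 RPKM in WT, -1.25) and MYB96, an activator of ABA and wax genes (12.1 RPKM in phyB, 24.3 RPKM in WT, -1.01). MYB96 stood at the line: its ratio was between -0.99 and -0.95 under quantile normalization, median scaling, upper-quartile factors and log2(RPKM + 1), which left 1 gene at 2-fold. HY5, which binds the ABI5 promoter, was at 114 RPKM in phyB and 139 RPKM in WT (-0.29, or -0.46 with the length trend removed), named after its value was seen.

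**Figure D3:**
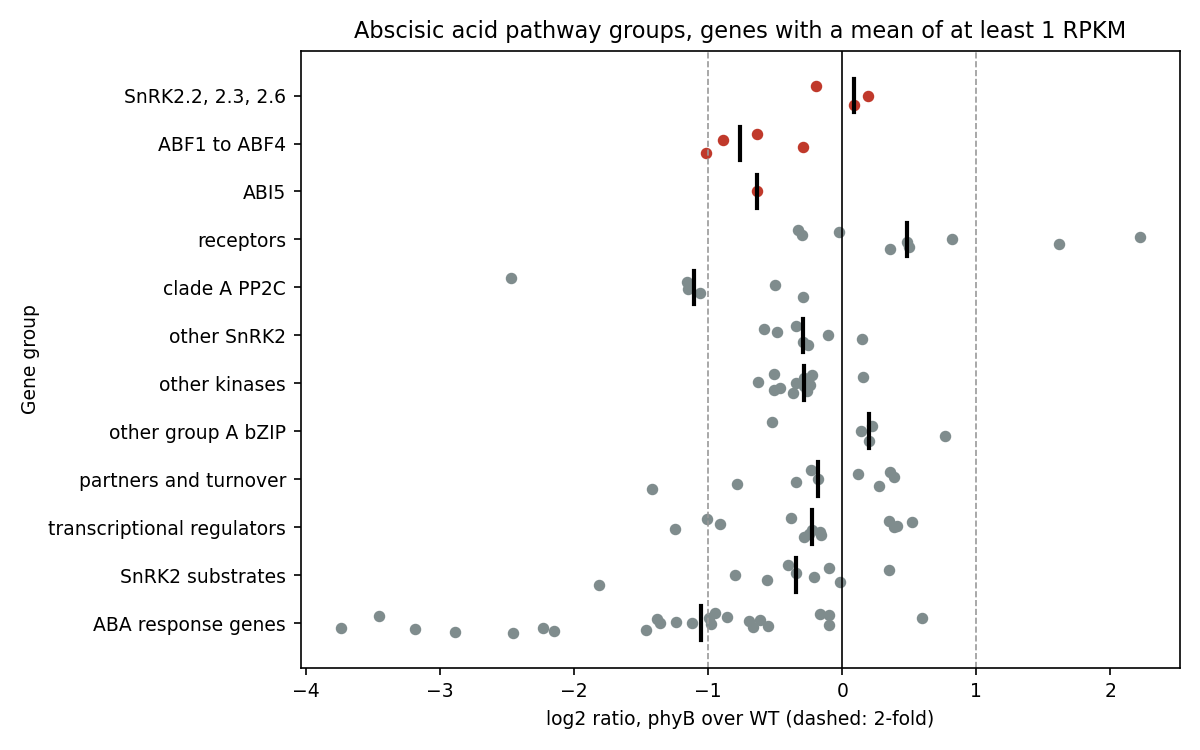
Each point is the log2 ratio (phyB over WT) of 1 counted gene, grouped by role in the pathway; black bars are group medians, red points are the kinases and factors described here, grey points the other groups, and dashed lines mark 2-fold. The PP2C and ABA response groups have medians of -1.10 and -1.05, the receptor median is 0.48, and the kinases lie near 0.

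Downstream, of 25 genes known to respond to ABA 24 were counted, and 12 of them were lower in phyB by 2-fold or more, against 2.18% of counted genes. None was higher by 2-fold, 23 ratios lay below 0, and the median was -1.05. LEA7, a late embryogenesis abundant protein gene, was at 1.06 RPKM (18 reads) in phyB and 14.2 RPKM in WT (-3.74), and EM6, of the same class and a target of ABI5, at 1.19 RPKM (11 reads) in phyB and 10.8 RPKM in WT (-3.18). RD29B, the standard reporter of ABF activity, was at 2.98 RPKM in phyB and 22.1 RPKM in WT (-2.89). RD29A was at 15.1 RPKM in phyB and 82.9 RPKM in WT (-2.46), LEA4-5 at 6.25 RPKM in phyB and 29.4 RPKM in WT (-2.23) and the dehydrin gene RAB18 at 6.93 RPKM in phyB and 30.8 RPKM in WT (-2.15). ADH1 was the 1 with a ratio above 0, at 74.0 RPKM in phyB and 49.1 RPKM in WT (0.59), and was named after its value was seen. LEA7 overlaps an opposite-strand gene by 297 bases and RAB18 one by 11 bases, outside their coding sequences.

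Of 10 genes for substrates of the kinases outside the bZIP family, such as ion channels, 9 were counted, 1 was lower by 2-fold, against 2.18% of counted genes, and 0 higher (median -0.35). The sugar transporter gene SWEET11, the most abundant, was at 316 RPKM in phyB and 338 RPKM in WT (-0.10). The gene at 2-fold was QUAC1, a guard-cell anion channel, at 0.48 RPKM in phyB and 1.70 RPKM in WT (-1.82), named after its value was seen. No gene of this list was at 2-fold on the log2(RPKM + 1) scale.

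The ABRE itself, the sequence these factors bind, was set against the ratio across the table. Counted nuclear genes with a window numbered 19053. The share at least 2-fold lower in phyB was 2.05% for the 17248 genes with 0 ABRE matches and 2.63% for the 1368 with 1. It was 5.93% for the 354 with 2 and 9.64% (8 genes) for the 83 with 3 or more. The exact binomial interval of the last share, 4.25 to 18.1%, takes genes as independent draws and does not cover the counting error of the reads. The share higher by 2-fold or more was 3.0%, 2.78%, 1.41% and 3.61% in the same classes. The median log2 ratio was -0.01, -0.05, -0.11 and -0.15. Both strands of a palindromic stretch count as 2 matches here. With overlapping matches merged into sites, a count chosen after seeing the data, 2.89% of genes with 1 site, 6.51% of 215 genes with 2 sites and 17.6% of 34 genes with 3 or more were at least 2-fold lower. Without the genes of any list, likewise chosen afterwards, the shares at least 2-fold lower were 1.99%, 2.36%, 5.20% and 6.58% for 0, 1, 2 and 3 or more matches. The shares at least 2-fold higher were 2.99%, 2.81%, 1.45% and 3.95%. The last class held 76 genes, 5 of them lower and 3 higher. Genes are not replicates, the values come from 1 column per genotype, and no test was made.

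Median levels were similar between these classes, between 13.4 and 16.7 RPKM. The G-box holds the same core and is bound by PIF factors and HY5 as well. It gave 4.23% of 1395 genes at least 2-fold lower, against 2.03% of genes without it. Of the 466 genes with a G-box but no ABRE match, 3.65% were at least 2-fold lower and 3.22% at least 2-fold higher. Of the 933 genes whose ABRE matches overlap no G-box, 3.0% were at least 2-fold lower and 3.11% at least 2-fold higher. The RY element gave 3.45% lower and 4.63% higher over 1448 genes, and the CE1 element 2.38% lower and 3.42% higher over 2310 genes. The 8 genes with 3 or more ABRE matches and a 2-fold lower level were LEA7, RD29B, AHG3, AT4G33467, AT1G04560, AT3G53040, AT3G57540 and AT3G12320. Of these, AT3G57540, a remorin gene, was at 6.12 RPKM in phyB and 16.3 RPKM in WT (-1.41), and AT3G12320 at 15.7 RPKM in phyB and 33.9 RPKM in WT (-1.11), both named after their values were seen. Among the 25 ABA response genes 11 windows held an ABRE match, which were 6 of the 12 that were 2-fold lower and 5 of the 12 others counted. RD29A (-2.46) and GOLS2 (-3.46) had no match in their windows. The windows end at the annotated gene start, and sequence after it or further upstream was not searched.

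**Figure D4:**
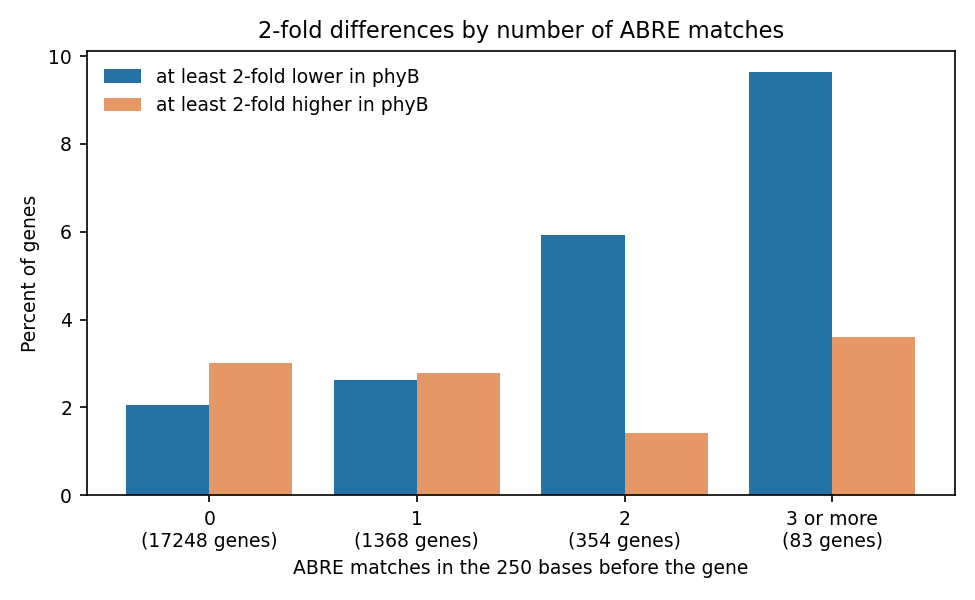
Percent of counted genes lower by 2-fold or more (left bars) or higher by 2-fold or more (right bars) in phyB, by the number of ABRE matches in the 250 bases before the gene. The share of lower genes is 2.05% at 0 matches and 9.64% at 3 or more, while the share of higher genes has no such order.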

How the data were processed

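Reads per gene model and RPKM were deposited by the authors as 1 column of each per genotype, per the file headers. The submitters' processing notes name TAIR10 as the build. The sources used here do not give the aligner, the counter, the use of strand or any pooling of the samples. The deposited reads were treated as estimated counts because 0.5 stands in place of 0 reads, and these entries were set to 0. The deposited RPKM values imply a whole coding length for each model. Members and lists were chosen with earlier results of these data known.

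The ratio of RPKM, phyB over WT, was taken with no pseudocount. Where a column was at 0 reads, it was set to the floor of 3 reads, so that such a ratio is a bound. Intervals are exact conditional Clopper-Pearson intervals for ratios, exact Poisson intervals for levels and normal approximations for differences between ratios (95%), for counting error only; PCR copies are not independent molecules. A gene was counted if it averaged 1 RPKM or more. Named from each list were up to 6 genes with a 2-fold difference and 5 RPKM in either genotype, or the most abundant gene. The planned edgeR test needs replicate columns and was not run; edgeR 4.0.16 gave scaling factors only. The length trend is a lowess fit (span 0.3, statsmodels 0.14.6). Positions, windows and coding sequences are from RefSeq TAIR10.1, in which 26719 of 27206 nuclear models had a gene. Ratios and intervals were tested on data simulated with counting error alone, the model that the intervals assume. That test checks the calculation and cannot show how the intervals hold with spread between plants.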

Additional observations from a re-analysis of the deposited data

How the results depend on the processing

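With 1 column per genotype, no replicate could be left out. No paired analysis was possible because the columns bear genotypes and not replicate numbers, so the replicate block was not run. The ratios of 9 of the 10 genes were recomputed under 9 settings, and 0 of these values changed sign. All stayed within their counting interval except those of SnRK2.2 (0.01) and ABF3 (-0.96) with quantile normalization. Settings that only rescale a column shift every ratio by the same constant. That constant was at most 0.046, less than the smallest member ratio (0.09, SnRK2.2). An added pseudocount cannot change a sign either. Under these settings no sign could change, so only quantile normalization and removal of the length trend could have shown a change. The log2 ratio of ABF1 ranged from -1.02 to -0.89. The count of members at 2-fold or more was 0 in place of 1 with quantile normalization, median scaling, upper-quartile factors, log2(RPKM + 1), an absolute log2 ratio of 1.5 and where the whole counting interval lay beyond 2-fold, since ABF1 stood at the line. Against 1038 genes in all, the count was 621 on the log2(RPKM + 1) scale, 2137 with no filter, 518 at a mean of at least 5 RPKM, 371 at an absolute log2 ratio of 1.5 and 439 with the whole interval beyond 2-fold, which follows from each criterion. Removal of the length trend turned the split of 617 higher and 421 lower genes into 450 and 498. Against 22 pathway list genes at 2-fold or more, 11 passed at an absolute log2 ratio of 1.5. Levels below 1 RPKM, those of ABI3 and ABI4, rest on at most 33 reads.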
